A study of Homo sapiens with 6 samples.

Results

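Transcript levels of 10 genes of hypoxia sensing and response, HIF1A, EPAS1, EGLN1, EGLN3, VEGFA, ADM, CA9, CA12, NDRG1 and P4HA1, were examined in DU145 cells, a human prostate cancer cell line. The genes were chosen by symbol for their roles, by a rule that uses no measured value but was written with earlier results of these data known, and all 10 were found among the 19727 genes of the expression table. Polyadenylated RNA had been sequenced in 3 libraries of cells carrying lentivirus-circCSPP1, which overexpresses the circular RNA circCSPP1, and in 3 libraries of cells carrying the control vector lentivirus-NC. Both groups were stable DU145 derivatives made by lentiviral delivery and puromycin selection, and neither is labelled as hypoxic, starved or drug treated. The labels do not say whether the 3 libraries of a group came from separate cultures, so the p-values measure only the spread between these libraries, which may be technical. Levels are given as FPKM (fragments per kilobase of transcript, scaled to the number of mapped fragments), a unit that corrects for transcript length and library size.

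Cells sense oxygen through the hypoxia-inducible factors (HIFs), which pair an oxygen-regulated alpha subunit with the constant partner ARNT. In the presence of oxygen, prolyl hydroxylases of the EGLN family mark the alpha subunits for the VHL ubiquitin ligase and destruction, and when oxygen falls the alpha subunits escape, enter the nucleus and switch on genes for angiogenesis, pH control, glucose use and matrix assembly. This control acts mainly on the alpha subunit proteins, which RNA-seq does not measure, whereas EGLN3 and most of the target genes respond at the transcript level.

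The 6 libraries held between 28900000 and 36650000 fragments, as read from the step size of low FPKM values. CSPP1, the host gene of the overexpressed circular RNA, was measured at 9.54 ± 0.493 FPKM in the lentivirus-NC libraries and at 19.5 ± 4.44 FPKM in the lentivirus-circCSPP1 libraries (mean ± SD, n = 3 each; limma log2 fold change 0.94, adjusted p = 0.0162), although a gene-level value cannot separate the circular from the linear transcript. By qRT-PCR the paper reported that the lentivirus raised circCSPP1 in DU145 cells and left linear CSPP1 mRNA unchanged. A circular RNA is a closed loop and the libraries were of polyadenylated RNA, so the share of circCSPP1 in the CSPP1 value is not known. Among the 4 epithelial markers KRT8, KRT18, EPCAM and CDH1, all were detected and all 4 were lower with lentivirus-circCSPP1, and their summed level ran from 1729 to 1801 FPKM in the control libraries and from 715 to 854 FPKM in the others. The luminal marker KLK3 was listed at 0 in all 6 libraries, and among 7 markers of blood, vessel and connective tissue cells CD3E was at 0 in all. These 7 summed to 2.97 to 4.74 FPKM in the controls and 1.18 to 2.57 FPKM with lentivirus-circCSPP1, and the 1 of them that was tested, COL1A1, was lower (log2 fold change -0.97, limma adjusted p = 0.0101). The part of these marker differences in the hypoxia gene results was not tested, and in bulk RNA fewer cells of a type cannot be told apart from less RNA per cell. The lentivirus-circCSPP1 libraries stood apart from each other along transcript GC content. Over 7605 genes, GC content and length accounted for 60.05% of the variance of replicate 1 around its group, 49.7% for replicate 2 and 18.8% for replicate 3, against 0.293% to 1.10% in the lentivirus-NC libraries. Results are therefore given also without lentivirus-circCSPP1 replicate 1, the library with the largest of these shares.

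Of the 10 genes, 9 passed the minimum mean of 1 FPKM and were tested, and CA9 did not. In the fit across all 12322 tested genes, 4 of the 9 fell with lentivirus-circCSPP1 (EPAS1, HIF1A, EGLN3 and CA12) and 1 rose (ADM), by limma with a false discovery threshold of 0.05 (Benjamini-Hochberg adjusted p). By comparison, 11.4% of all tested genes passed this threshold, 6.66% as lower and 4.69% as higher. The median log2 fold change of the 9 genes was -0.21 beside -0.03 for all tested genes. In 6 of the 9 genes the highest library of 1 group lay below the lowest library of the other, a separation seen in 36.4% of all tested genes. None of the 9 reached the thresholds used in the study for pathway analysis (an unadjusted p of 0.01 together with a change of at least 1.5 on the log2 scale in either direction), which 0.195% of tested genes passed. CA12 passed the minimum only through its control libraries, so its entry into the test favoured a lower value.

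**Figure D1:**
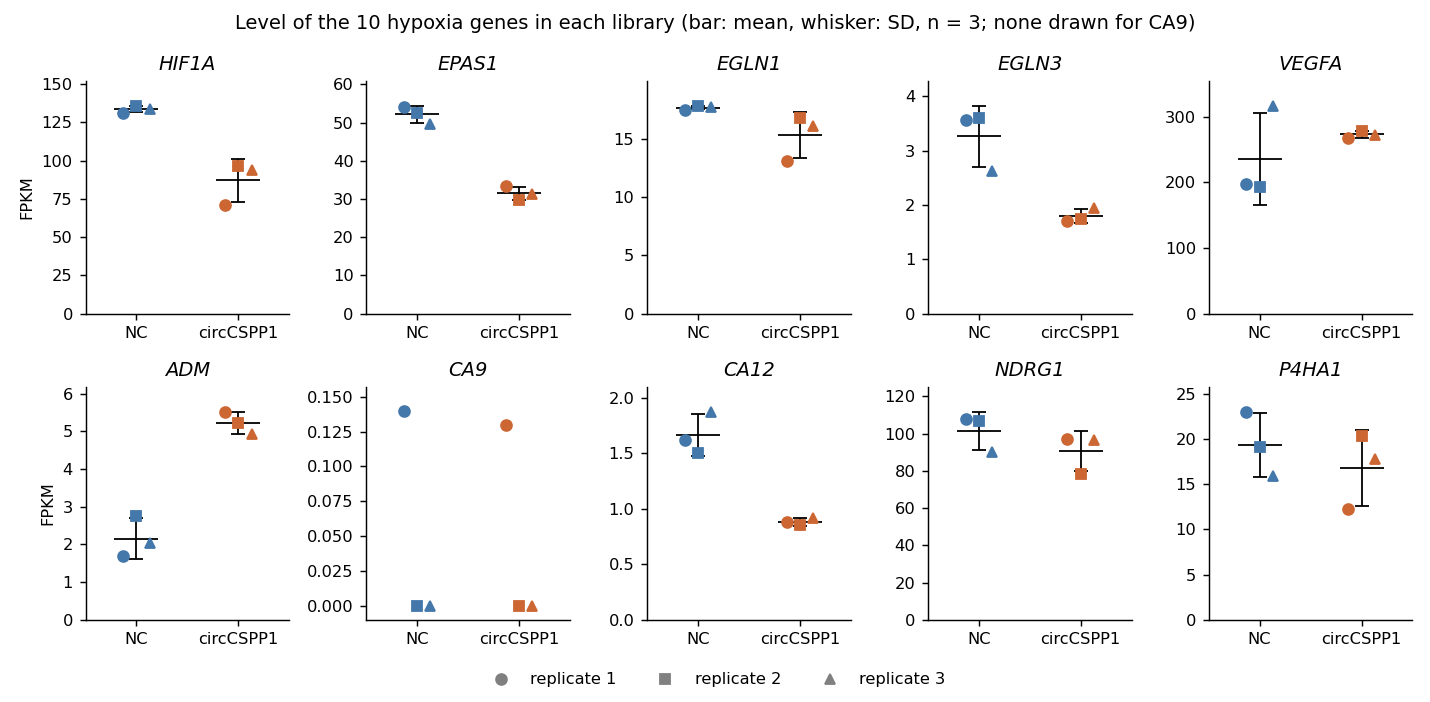
Level (FPKM, linear axis from 0, or just below 0 for CA9) of each of the 10 genes in the 3 lentivirus-NC (NC) and 3 lentivirus-circCSPP1 (circCSPP1) libraries, with 1 point per library and bars for mean and SD (none for CA9). The groups are separated for HIF1A, EPAS1, EGLN1, EGLN3, ADM and CA12, and they overlap for VEGFA, NDRG1 and P4HA1.

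HIF1A encodes the ubiquitous HIF alpha subunit and lies on chromosome 14 (chr14:61695513-61748259, plus strand, GRCh38). Its level was 131, 135 and 134 FPKM in lentivirus-NC replicates 1 to 3, and 71.0, 96.2 and 94.1 FPKM in lentivirus-circCSPP1 replicates 1 to 3. All 3 lentivirus-circCSPP1 libraries were below all controls, and replicate 1 was the lowest of them. HIF1A fell from a mean of 134 ± 2.08 FPKM to one of 87.1 ± 13.99 FPKM, and the log2 fold change was -0.62 (SE 0.123, 95% interval -0.91 to -0.34, limma adjusted p = 0.0207). Without lentivirus-circCSPP1 replicate 1 the log2 fold change was -0.48 (adjusted p = 0.00222). The call was lost without lentivirus-NC replicate 1 (adjusted p = 0.0826), replicate 2 (0.0941) or replicate 3 (0.0836) and without lentivirus-circCSPP1 replicate 3 (0.0542), while the log2 fold changes in these fits lay between -0.69 and -0.61, and it was also lost without moderation of the variance (0.0858). The annotated locus also holds the antisense RNAs HIF1A-AS1 and HIF1A-AS2, and the sources used here do not state whether strand was used in counting. Antisense genes are annotated at the EGLN3, VEGFA and P4HA1 loci too, and their reads cannot be told apart without strand.

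EPAS1 encodes the other main oxygen-regulated alpha subunit and lies on chromosome 2 (chr2:46293667-46386703, plus strand). Lentivirus-NC replicates 1 to 3 had 54.1, 52.5 and 49.7 FPKM, and lentivirus-circCSPP1 replicates 1 to 3 had 33.3, 29.8 and 31.3 FPKM. The groups did not overlap and the libraries within each lay close together. EPAS1 fell from 52.1 ± 2.23 to 31.4 ± 1.77 FPKM, with a log2 fold change of -0.71 (SE 0.0872, 95% interval -0.92 to -0.51, limma adjusted p = 0.00491), and it was called lower under each of 19 alternative analyses with log2 fold changes from -0.75 to -0.67. Its absolute log2 fold change lay at the 95.6th percentile of all tested genes, and that of HIF1A at the 93.6th. The ratio of HIF1A to EPAS1 was 2.57 ± 0.134 in the controls and 2.79 ± 0.581 with lentivirus-circCSPP1 (exact permutation p = 0.7, two-sided). It was 2.43, 2.58 and 2.69 in lentivirus-NC replicates 1 to 3 and 2.13, 3.23 and 3.01 in lentivirus-circCSPP1 replicates 1 to 3. Lentivirus-circCSPP1 replicate 1 thus lay below all controls and replicates 2 and 3 above them, so a change of this ratio was not resolved. ARNT, the shared partner, stood at 34.9 ± 1.78 and 35.4 ± 1.54 FPKM (log2 fold change 0.02, 95% interval -0.18 to 0.22). The summed level of both alpha subunits relative to ARNT was 5.18, 5.22 and 5.59 in the controls and 3.07, 3.40 and 3.56 with lentivirus-circCSPP1. These ratios did not overlap, at an exact permutation p of 0.1, which is the smallest that 3 against 3 libraries can give. Both alpha subunits fell in these same libraries while ARNT changed little, so the ratio is no separate evidence of a change.

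Because the study examined circCSPP1 together with the microRNA hsa-miR-520h, the 3′ UTRs of the 10 genes were searched for the 7 letters complementary to its bases 2 to 8 (CACTTTG), and for those complementary to bases 2 to 7 followed by A (ACTTTGA). The mature microRNA is shown with its seed, bases 2 to 8, in capitals, and each match is shown in capitals within its flanks, with gene models from GENCODE release 29 and the mature sequence from RefSeq.
hsa-miR-520h: aCAAAGUGcuucccuuuagagu
HIF1A, chr14:61747822-61747850, plus strand: gtttctatagtCACTTTGccagctcaaaa
HIF1A, chr14:61748033-61748061, plus strand: ttgattttatgCACTTTGtcgctattaac
EPAS1, chr2:46386150-46386178, plus strand: tgttcccagagCACTTTGcaactccctgg
VEGFA, chr6:43784729-43784757, plus strand: tctgcgcagagCACTTTGggtccggaggg
CA12, chr15:63325515-63325543, minus strand: tgggagagtctCACTTTGgaatcagaatt
EGLN3, chr14:33950151-33950179, minus strand: accttctgttgACTTTGAaatattggctc
Matches were present for HIF1A (2), EPAS1 (1), VEGFA (1), CA12 (1) and EGLN3 (1), and 0 were found for EGLN1, ADM, CA9, NDRG1 and P4HA1. The genes with a match include the 4 that fell, EGLN3 only by ACTTTGA, as well as VEGFA, whose difference did not pass the test. The paper proposes that circCSPP1 sponges miR-520h and so raises its target EGR1. A link between the matches and the changes was not tested. CACTTTG was present in the 3′ UTR of 25.5% of 12233 tested genes with an annotated 3′ UTR, whose median log2 fold change was -0.03, the same to 2 decimals as that of all tested genes, and 33.1% held at least 1 of the 7-letter matches. A match describes these letters only, and binding was not measured.

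EGLN1 encodes the main prolyl hydroxylase acting on the alpha subunits (chr1:231363751-231425044, minus strand). Its level was 17.5, 17.8 and 17.7 FPKM in lentivirus-NC replicates 1 to 3 and 13.1, 16.8 and 16.1 FPKM in lentivirus-circCSPP1 replicates 1 to 3. The groups did not overlap, but replicate 1 of lentivirus-circCSPP1 lay well below the other 2 of its group. The log2 fold change was -0.20 (SE 0.115, 95% interval -0.47 to 0.07, limma adjusted p = 0.3001), so EGLN1 did not pass the test, and without that replicate it was -0.10. None of 19 alternative analyses called EGLN1.

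EGLN3 encodes a prolyl hydroxylase that is itself a HIF target (chr14:33924231-34462774, minus strand). Lentivirus-NC replicates 1 to 3 had 3.57, 3.60 and 2.62 FPKM and lentivirus-circCSPP1 replicates 1 to 3 had 1.71, 1.74 and 1.95 FPKM. The groups did not overlap, and lentivirus-NC replicate 3 lay nearest to the lentivirus-circCSPP1 libraries. EGLN3 fell from 3.26 ± 0.557 to 1.80 ± 0.131 FPKM (log2 fold change -0.60, SE 0.130, 95% interval -0.90 to -0.29, limma adjusted p = 0.0283). Without lentivirus-circCSPP1 replicate 1 the log2 fold change was -0.58 (adjusted p = 0.0267). The adjusted p rose above the threshold without lentivirus-NC replicate 1 (0.122) or replicate 2 (0.124), without lentivirus-circCSPP1 replicate 2 (0.0609) or replicate 3 (0.0794), and without moderation of the variance (0.0706). About 158 to 299 fragments per library stood behind these values if the longest coding transcript is taken as the length. The annotated EGLN3 locus overlaps SPTSSA on the same strand, so reads could have been split between them. The ratio of EGLN1 to EGLN3 was 4.90, 4.94 and 6.77 in the controls and 7.66, 9.63 and 8.26 with lentivirus-circCSPP1, without overlap (exact permutation p = 0.1). EGLN3, the denominator, fell in these same libraries, so this ratio is no separate evidence of a change.

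VEGFA encodes the principal angiogenic growth factor under HIF control (chr6:43770184-43786487, plus strand), and in every library it had the highest level of the 10 genes. Lentivirus-NC replicates 1 to 3 had 198, 194 and 317 FPKM, and lentivirus-circCSPP1 replicates 1 to 3 had 267, 279 and 273 FPKM. Lentivirus-NC replicate 3 was above all lentivirus-circCSPP1 libraries, while the other 2 controls were below them. The means of 236 ± 69.8 and 273 ± 5.85 FPKM gave a log2 fold change of 0.25 (SE 0.180, 95% interval -0.17 to 0.67, limma adjusted p = 0.414). Without lentivirus-NC replicate 3 the log2 fold change was 0.48 with an adjusted p of 0.0412, and this was the only 1 of 19 alternative analyses in which VEGFA was called. Within libraries, the ratio of VEGFA to HIF1A was 1.51, 1.43 and 2.37 in the controls and 3.77, 2.90 and 2.90 with lentivirus-circCSPP1. The ratio of VEGFA to EPAS1 was 3.65, 3.69 and 6.37 in the controls and 8.03, 9.38 and 8.72 with lentivirus-circCSPP1. Neither ratio overlapped between the groups (exact permutation p = 0.1 for each), lentivirus-NC replicate 3 included. Both denominators fell in these same libraries, so the ratios are no separate evidence for a difference of VEGFA.

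ADM encodes adrenomedullin, a secreted vasodilator peptide (chr11:10304680-10307397, plus strand). Its level was 1.68, 2.75 and 2.04 FPKM in lentivirus-NC replicates 1 to 3 and 5.51, 5.21 and 4.92 FPKM in lentivirus-circCSPP1 replicates 1 to 3. Every lentivirus-circCSPP1 library was above every control. ADM rose from 2.16 ± 0.544 to 5.21 ± 0.295 FPKM, a ratio of 2.42 between the means, and the log2 fold change on the log2(FPKM + 1) scale was 0.99 (SE 0.145, 95% interval 0.65 to 1.33, limma adjusted p = 0.00819). This was the largest absolute log2 fold change among the 9 tested genes and lay at the 98.6th percentile of all tested genes. ADM was called higher in each of the 18 alternative analyses that tested it, with log2 fold changes from 0.88 to 1.30. Leaving out lentivirus-circCSPP1 replicate 1 gave 0.96 (adjusted p = 0.00849). Between 93.3 and 341 fragments per library stood behind these levels. Outside the gene lists described here, the tested genes whose log2(FPKM + 1) followed ADM most closely over the 6 libraries were PIP4P2 (Pearson r = 0.994), TAF9 (0.993) and ING5 (0.992), values that include the group difference itself.

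**Figure D2:**
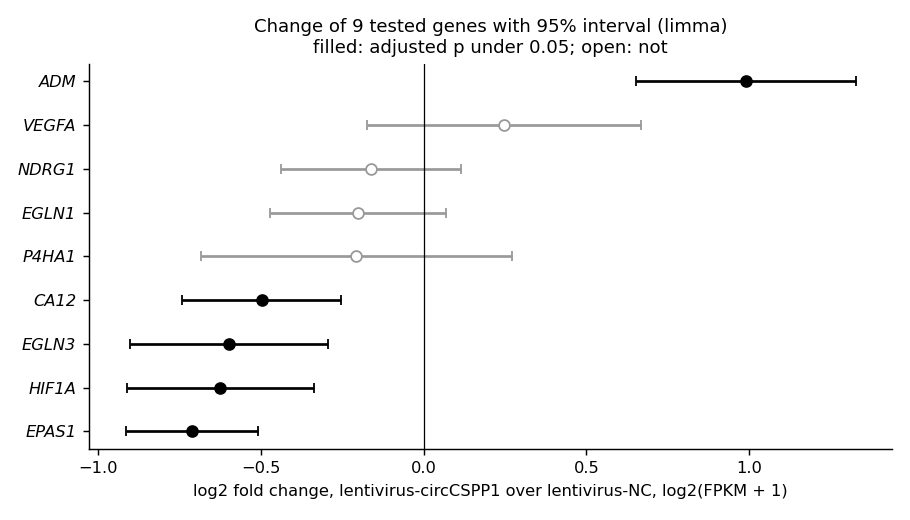
Log2 fold change of the 9 tested genes, lentivirus-circCSPP1 over lentivirus-NC on log2(FPKM + 1), with the 95% interval from limma as whiskers. Filled points had an adjusted p under 0.05: ADM at 0.99 lies to the right of 0, and CA12, EGLN3, HIF1A and EPAS1 lie between -0.71 and -0.50.

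HIF binds DNA at a short core, ACGTG or GCGTG, in the hypoxia response element. The windows from 250 bases before to 50 bases after each transcript start in the RefSeq table (GRCh38.p14) were searched for these letters on both strands, and 6 of the stretches found are shown so that they can be read beside the direction of change. VEGFA and NDRG1 were not searched. Each stretch is written on the strand of its gene, with the core in capitals, and a core on the opposite strand appears as its complement (CACGT or CACGC).
EGLN1, chr1:231422283-231422312, minus strand: gggccgtggtgtACGTGcagagcgcgcaga
CA9, chr9:35673898-35673927, plus strand: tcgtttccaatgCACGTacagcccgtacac
P4HA1, chr10:73096935-73096964, minus strand: tgtgatcgagctCACGTagcgagggctgca
ADM, chr11:10304960-10304989, plus strand: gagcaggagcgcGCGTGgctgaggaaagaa
HIF1A, chr14:61695297-61695326, plus strand: tggctgagagcgGCGTGggctggggtgggg
EPAS1, chr2:46297278-46297307, plus strand: gggcctgccggcGCGTGcccgcccacacac
CA12, not shown, held GCGTG 2 times on the opposite strand, and EGLN3 held neither core. The more restrictive ACGTG was found for EGLN1, CA9 and P4HA1, of which the tested EGLN1 and P4HA1 did not pass the test. The stretches of ADM, which rose, and of HIF1A, EPAS1 and CA12, which fell, held GCGTG. Either core occurred in 48.4% of 35116 promoter windows and ACGTG in 21.4%, so the presence of these letters was common.

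CA9 and CA12 encode membrane carbonic anhydrases that acidify the cell surroundings, and CA9 is widely used as a marker of hypoxic tumor cells. CA9 (chr9:35673856-35681159, plus strand) was listed at 0.14 FPKM in lentivirus-NC replicate 1, at 0.13 FPKM in lentivirus-circCSPP1 replicate 1 and at 0 in the other 4 libraries. It was near the limit of detection in both groups, at about 6.66 and 6.83 fragments in the libraries with a value, and was not tested. The locus overlaps ARHGEF39 on the opposite strand.

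CA12 (chr15:63321378-63382161, minus strand) was measured at 1.62, 1.5 and 1.87 FPKM in lentivirus-NC replicates 1 to 3 and at 0.88, 0.85 and 0.92 FPKM in lentivirus-circCSPP1 replicates 1 to 3. The groups did not overlap. CA12 fell from 1.66 ± 0.189 to 0.883 ± 0.0351 FPKM, with a log2 fold change of -0.50 on the log2(FPKM + 1) scale (SE 0.104, 95% interval -0.74 to -0.25, limma adjusted p = 0.0254). With smaller pseudocounts it reached -0.90, since adding 1 compresses differences at such low levels. Without lentivirus-circCSPP1 replicate 1 the log2 fold change was -0.50 (adjusted p = 0.0215). The call was lost without lentivirus-NC replicate 1 (adjusted p = 0.0976), replicate 2 (0.0791) or replicate 3 (0.101), without lentivirus-circCSPP1 replicate 2 (0.0569) or replicate 3 (0.0837), and after quantile normalization (0.0908).

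NDRG1, a hypoxia- and stress-induced gene on chromosome 8 whose product has been linked to differentiation, was abundant in every library. Its level was 108, 107 and 89.9 FPKM in lentivirus-NC replicates 1 to 3 and 97.2, 78.4 and 96.6 FPKM in lentivirus-circCSPP1 replicates 1 to 3. The groups overlapped, with lentivirus-NC replicate 3 below 2 of the lentivirus-circCSPP1 libraries. The log2 fold change was -0.16 (SE 0.118, 95% interval -0.44 to 0.11, limma adjusted p = 0.414), and NDRG1 was called in none of 19 alternative analyses.

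P4HA1 encodes a catalytic subunit of the collagen prolyl hydroxylase (chr10:73007217-73096974, minus strand). It had 23.0, 19.1 and 15.9 FPKM in lentivirus-NC replicates 1 to 3 and 12.2, 20.4 and 17.8 FPKM in lentivirus-circCSPP1 replicates 1 to 3. The groups overlapped, with the lowest value in lentivirus-circCSPP1 replicate 1. The log2 fold change was -0.21 (SE 0.205, 95% interval -0.68 to 0.27, limma adjusted p = 0.557), and without that replicate it was -0.0058. The data did not resolve a change of P4HA1 in either direction.

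Because FPKM is a level per length, the genes can also be ordered within a group. In the controls the order of the means was VEGFA, HIF1A, NDRG1, EPAS1, P4HA1, EGLN1, EGLN3, ADM, CA12 and CA9. The libraries of P4HA1 and EGLN1, of EGLN3 and ADM, and of ADM and CA12 overlapped, and the other neighbours were separate. With lentivirus-circCSPP1 the order was VEGFA, NDRG1, HIF1A, EPAS1, P4HA1, EGLN1, ADM, EGLN3, CA12 and CA9. Here NDRG1 and HIF1A overlapped, as did P4HA1 and EGLN1, and ADM stood above EGLN3 in all 3 libraries.

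The GC content of the longest coding transcript ran from 36.4% for HIF1A to 60.1% for CA9, beside a median of 49.3% for tested genes. In the 3 genes of lowest GC content, HIF1A, P4HA1 and EGLN1, lentivirus-circCSPP1 replicate 1 was the lowest library of its group, by -0.28, -0.40 and -0.20 from the group mean on the log2(FPKM + 1) scale. In EPAS1, CA12, VEGFA and EGLN3, with GC contents from 49.4% to 52.6%, no lentivirus-circCSPP1 library departed from its group mean by more than 0.0812. After a loess correction of each library for GC content and length, the log2 fold change was -0.52 for HIF1A (adjusted p = 0.00487), -0.73 for EPAS1 (0.000545), -0.61 for EGLN3 (0.0114), -0.50 for CA12 (0.00967) and 0.95 for ADM (0.00389). The same 5 genes were called after the correction as before it.

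**Figure D3:**
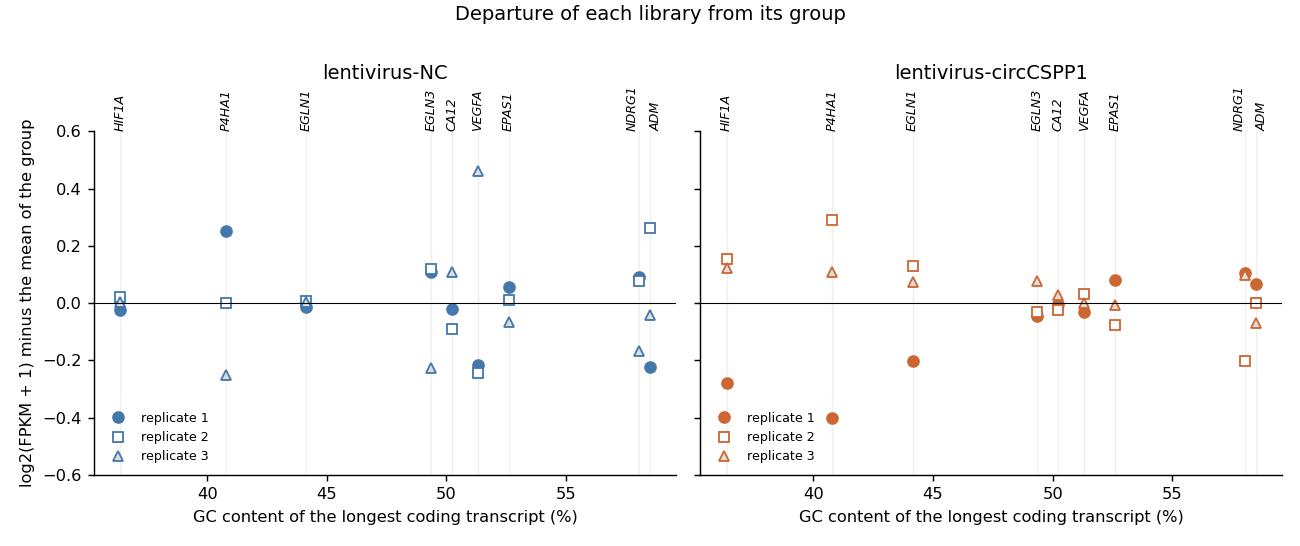
Departure of each library from the mean of its group on log2(FPKM + 1), plotted for the 9 tested genes against the GC content (%) of the longest coding transcript, with lentivirus-NC libraries on the left and lentivirus-circCSPP1 libraries on the right. Lentivirus-circCSPP1 replicate 1 lies at -0.28 for HIF1A, -0.40 for P4HA1 and -0.20 for EGLN1, and the largest departure among the controls is 0.46, for VEGFA in replicate 3.

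**Figure D4:**
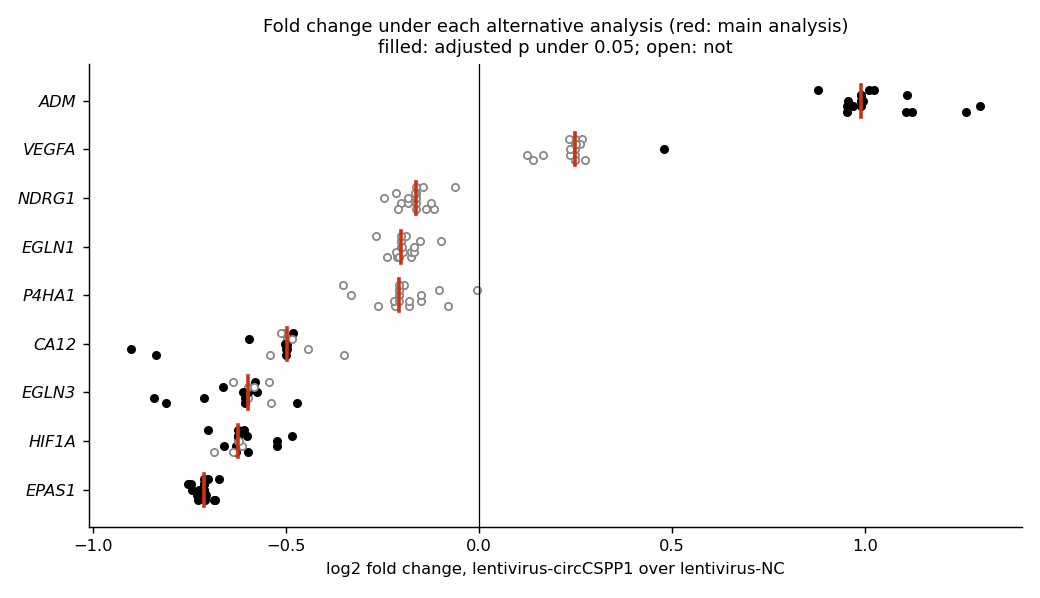
Log2 fold change of the 9 tested genes in each alternative analysis, 1 point per analysis, filled where the adjusted p was under 0.05, with the main value as a red line. ADM and EPAS1 are filled throughout, and the points of EGLN1, NDRG1 and P4HA1 are all open.

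Other genes of oxygen sensing and HIF activity were taken from a list of 15, of which 14 were tested and HIF3A was below the minimum level. In this list 4 genes rose and 0 fell, with a median log2 fold change of 0.25 beside -0.03 for all tested genes. The calls are 28.6% of the tested genes of this list, beside 11.4% of all tested genes. The lists were written with earlier results of these data known, and such differences in share were not tested. The risers were VHL, which recognizes hydroxylated alpha subunits (17.6 ± 0.379 to 23.8 ± 1.48 FPKM, log2 fold change 0.41, limma adjusted p = 0.0312), the ubiquitin ligases SIAH1 (0.52, 0.0170) and SIAH2 (0.41, 0.0443), which act on prolyl hydroxylases, and the coactivator CREBBP (0.45, 0.0236). The count was 0 without any 1 of the lentivirus-NC libraries or without lentivirus-circCSPP1 replicate 3, 2 without replicate 2 and 5 without replicate 1, of which 4 were higher and 1 was lower. Calls over all genes also moved, from 1399 to 300, 317 and 407 without lentivirus-NC replicates 1, 2 and 3. They were 3512, 1160 and 450 without lentivirus-circCSPP1 replicates 1, 2 and 3. In the full set of libraries, lower HIF1A and EPAS1 transcripts stood beside higher VHL, SIAH1, SIAH2 and CREBBP transcripts. A link between these changes was not tested. Of the 14 tested genes of this list, 11 had a log2 fold change above 0 and 3 below it. Among the latter, RBX1 of the VHL ligase (-0.43, limma adjusted p = 0.0740) and CITED2 (-0.39, 0.162) did not pass.

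Of 21 further HIF targets outside glycolysis, 20 were tested, 3 rose and 3 fell, with a median of -0.13. These 6 calls are 30% of the tested genes of this list, beside 11.4% of all tested genes. DDIT4, an inhibitor of mTOR signaling, rose from 160 ± 16.0 to 400 ± 65.8 FPKM (log2 fold change 1.31, limma adjusted p = 0.00269), and NDUFA4L2, a mitochondrial protein gene, rose from 1.07 ± 0.358 to 3.68 ± 0.392 FPKM (1.19, 0.00528). ANGPTL4, a secreted regulator of lipid uptake, rose as well (0.92, 0.0285). The transcriptional repressor BHLHE40 fell from 26.2 ± 0.229 to 11.6 ± 1.20 FPKM (-1.11, 0.00227), and LOX, a collagen cross-linking enzyme (-0.68, 0.0201), and BNIP3, a mitophagy receptor (-0.56, 0.0351), also fell. DDIT4, NDUFA4L2 and BHLHE40 were called in every alternative analysis that tested them. The number of calls in the list was 3, 3 and 4 without lentivirus-NC replicates 1, 2 and 3, beside 300, 317 and 407 over all genes. It was 10, 7 and 3 without lentivirus-circCSPP1 replicates 1, 2 and 3, beside 3512, 1160 and 450 over all genes.

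Of 19 glycolytic HIF targets, 18 were tested, 7 fell and 1 rose, with a median of -0.31, and SLC2A3 was below the minimum. These 8 calls are 44.4% of the tested genes of this list, beside 11.4% of all tested genes. The regulator of glycolytic flux PFKFB4 fell most (28.5 ± 2.02 to 14.96 ± 1.54 FPKM, log2 fold change -0.89, limma adjusted p = 0.00528), and the enzymes PFKL (-0.76, 0.0159), ENO2 (-0.69, 0.0214), LDHA (-0.61, 0.0171), GPI (-0.46, 0.0148) and PGK1 (-0.44, 0.0115) fell as well. The glucose transporter SLC2A1 rose from 245 ± 3.47 to 339 ± 57.1 FPKM (0.46, 0.0463), and GAPDH had a log2 fold change of 0.00490 (0.980). The SLC2A1 call was lost in 9 of 19 alternative analyses, among them median-ratio scaling (0.0645), quantile normalization (0.0521), no filter on low values (0.0664), the replicate block (0.0558), the fits without lentivirus-NC replicate 1 (0.151), 2 (0.160) or 3 (0.137), and the fit without lentivirus-circCSPP1 replicate 3 (0.0739). The number of calls was 1, 1 and 2 without lentivirus-NC replicates 1, 2 and 3, beside 300, 317 and 407 over all genes. It was 11, 9 and 2 without lentivirus-circCSPP1 replicates 1, 2 and 3, beside 3512, 1160 and 450 over all genes. PFKFB4 was called in all of its alternative analyses.

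Of 25 relatives, partners and receptors of the 10 genes, 17 were tested, 1 rose and 1 fell, with a median of -0.32. The 2 calls are 11.8% of the tested genes of this list, beside 11.4% of all tested genes, so the share was near the background. ADM2, which encodes a peptide related to adrenomedullin, rose from 8.10 ± 0.502 to 15.4 ± 3.85 FPKM (log2 fold change 0.82, limma adjusted p = 0.0238), and VEGFC, a lymphangiogenic relative of VEGFA, fell from 7.83 ± 1.30 to 4.63 ± 0.173 FPKM (-0.64, 0.0269). Among the receptor and coreceptor genes of the VEGF and adrenomedullin families, FLT1, KDR, NRP2, CALCRL, RAMP2 and RAMP3 were all below the minimum, as were the ligand gene VEGFD and the carbonic anhydrase relative CA8. FLT4, the receptor for VEGFC, and the coreceptor genes NRP1 and RAMP1 were tested and did not pass. The number of calls was 0, 1 and 1 without lentivirus-NC replicates 1, 2 and 3, and 5, 3 and 0 without lentivirus-circCSPP1 replicates 1, 2 and 3, and the 5 stood beside 3512 calls over all genes. ADM and ADM2 rose, and their receptor components CALCRL, RAMP2 and RAMP3 were under 1 FPKM on average in both groups.

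**Figure D5:**
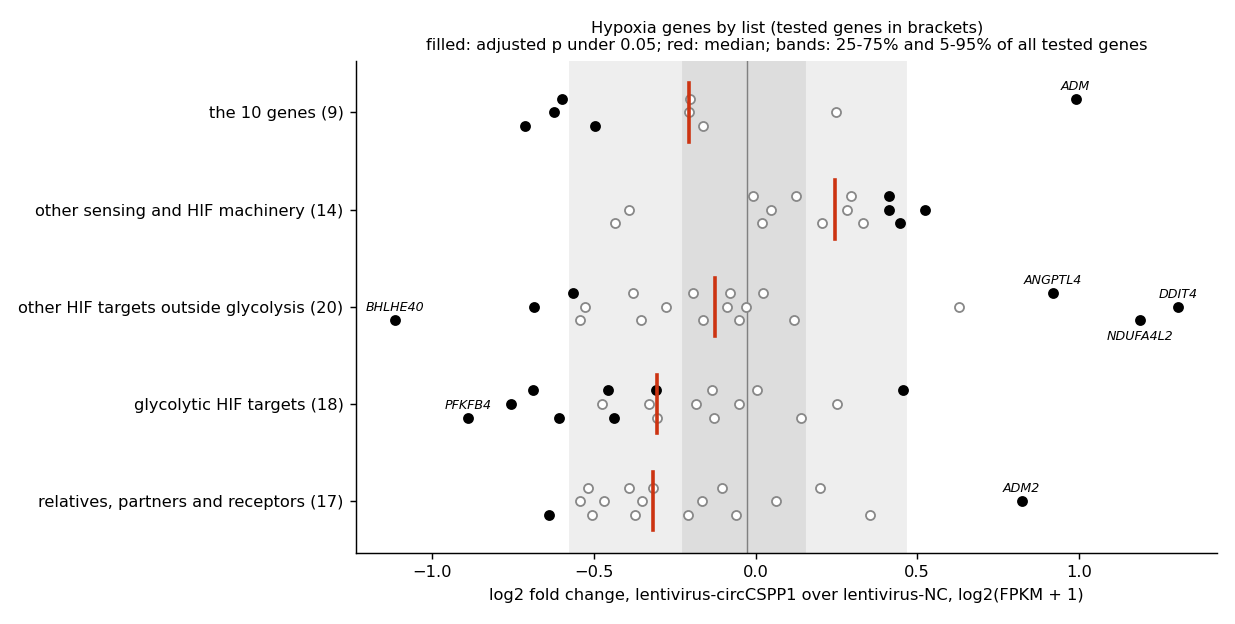
Log2 fold change on log2(FPKM + 1) of the tested genes in the 10 genes and in the 4 other hypoxia lists, with filled points for an adjusted p under 0.05, red lines for list medians and grey bands for the central 50% and 90% of all tested genes. The list medians are -0.21, 0.25, -0.13, -0.31 and -0.32 from top to bottom, and DDIT4 at 1.31 lies furthest to the right and BHLHE40 at -1.11 furthest to the left.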

How the data were processed

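The authors sequenced both ends of fragments of polyadenylated RNA by NovaSeq. The FPKM of each gene in each library was deposited as 1 table. The submitters' processing notes name hg38. The aligner, counting program and annotation are not given in the sources used here. Samples were grouped by their genotype labels, 3 as normal and 3 as circCSPP1 overexpression. The names lentivirus-NC and lentivirus-circCSPP1 for these groups are those of the paper.

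After conversion to log2(FPKM + 1), genes averaging 1 FPKM or more over the 6 libraries (12322) entered a two-sided limma fit (version 3.58.1, R 4.3.3) without covariates, using lmFit and trended eBayes, and p-values were adjusted over all of them by the Benjamini-Hochberg method. The code was tested on simulated data. Single genes and ratios were compared by exact permutation of libraries. Depth was read from the whole-fragment steps of low FPKM values of transcripts under 800 nt (92.1% to 98.0% of values whole within 0.15 of a step), and fragments behind a level were computed from it. Gene coordinates, GC content and 3′ UTRs were taken from GENCODE release 29, and promoter windows from RefSeq on GRCh38.p14, where 8 of the 10 genes were used.

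The 10 genes and the lists were chosen with earlier results of these data known. All 10 genes are described. Of other lists, genes with an adjusted p under 0.05 are named, at most 6 per direction by absolute log2 fold change, and genes below the minimum. GAPDH, ARNT, RBX1, CITED2, FLT4, NRP1 and RAMP1 were added with their values known. Alternatives were other pseudocounts, filters, scalings and variance models, the replicate number as a block, a loess correction for GC content and length, and leaving out each library. The loess correction without lentivirus-circCSPP1 replicate 1 was chosen after seeing the data.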

Additional observations from a re-analysis of the deposited data

How the results depend on the processing

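No result reversed. Of 168 values of the 9 tested genes under the alternatives, 149 kept direction and side of the threshold, 18 lost the call and 1 (VEGFA without lentivirus-NC replicate 3) gained it. Of 378 values of the other called list genes, 86 lost the call. The 5 calls among the 10 genes became 2 with a minimum mean of 5 FPKM, where 6 genes were tested, 3 without moderation of the variance, and from 2 to 5 with 1 library left out. Calls over all genes changed from 1399 to 834 without moderation, 3545 with the loess correction, 2719 with the loess correction and replicate block, 3792 with the loess correction without lentivirus-circCSPP1 replicate 1, and from 300 (without lentivirus-NC replicate 1) to 3512 (without lentivirus-circCSPP1 replicate 1) with 1 library left out. The cause of these changes was not tested.

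With the replicate number as a block, calls were 923 over all genes and 3 among the 10 genes, with EGLN3 (adjusted p = 0.0613) and CA12 (0.0624) not called and HIF1A at 0.0263 (limma). Deviations of libraries with the same number correlated at 0.073, 0.0065 and 0.057, and those with different numbers at -0.067 to 0.036. GC content and length weighed on the lentivirus-circCSPP1 deviations, so these small values cannot settle whether the numbers pair the libraries.

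Among the list counts, the 4 calls of sensing and HIF machinery became 1 with the replicate block and 7 (6 higher, 1 lower) with the loess correction, with or without lentivirus-circCSPP1 replicate 1. The 6 calls of targets outside glycolysis became 3 without moderation and 10 with the loess correction without lentivirus-circCSPP1 replicate 1. The 8 glycolytic calls became 4 without moderation. The 2 calls of relatives and receptors became 0 without moderation, 5 with the loess correction, 4 with the correction and replicate block and 4 with the correction without lentivirus-circCSPP1 replicate 1.

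With 3 libraries per group, the intervals of VEGFA and P4HA1 were wide and their direction was not resolved. CA9 lay below the level that these depths can compare.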
